A study of Arabidopsis thaliana with 2 samples.

Results

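WRKY6, WRKY20, WRKY22 and WRKY53 are 4 transcription factors of Arabidopsis thaliana whose transcripts were measured in rosette leaves in a series on the action of nitric oxide in plants. Their probe sets were taken as those that the platform annotation assigns to these 4 symbols, which gave 1 probe set for each gene, 4 of the 8247 probe sets other than controls and 4 of the 3602 genes named on the array. They were WRKY6 (AT1G62300), WRKY20 (AT4G26640), WRKY22 (AT4G01250) and WRKY53 (AT4G23810), and none of these probe sets carries a mark for sequence shared with other genes. WRKY6 lies on chromosome 1 and the other members on chromosome 4.

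Leaves of Col-0 plants at growth stage 3.5 were compared in 2 groups coded NOT and WDC, with 1 array in each. Both came from compost-grown plants kept at 22 °C in light for 24 h a day after 1 week of stratification at 4 °C, and the labels name no mutation or transgene in either. The codes are not spelled out and neither is tied to the control that the NOT label mentions, so all ratios run NOT over WDC without calling either array treated. That label gives 4 pooled experiments of about 8 leaves for each sample, which the WDC label does not repeat. For both arrays 8 pooled plants are listed. The extraction text mentions seedlings although the tissue is labelled as rosette leaves. With 1 array per group there was no replicate check, no p-value could be given, and precision is limited by having so few arrays. In RNA from whole leaves, fewer cells of a type and less RNA per cell cannot be told apart.

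WRKY proteins are plant transcription factors named after a conserved peptide of their DNA-binding domain, which recognises the W-box in promoters. Many are themselves switched on by pathogens, oxidants or ageing, and they act in networks in which members bind the promoters of other WRKY genes. WRKY53, of group III of the family, is an early regulator of leaf senescence that responds to hydrogen peroxide. WRKY6, of group IIb, is known from senescing and infected leaves and from phosphate homeostasis, where it represses a phosphate exporter gene. WRKY22, of group IIe, acts with its relative WRKY29 downstream of the MAP kinase cascade that answers bacterial flagellin, and also takes part in dark-induced senescence. WRKY20, of group I, carries a pair of WRKY domains.

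The 4 factors did not move together between the arrays. WRKY53 was the one member with more than a 2-fold difference, 3.21-fold higher in NOT, and WRKY6 was 1.52-fold lower in NOT. WRKY22 was lower and WRKY20 higher in NOT, both by less than 1.5-fold. All 4 gave signals above the floor of 12.5 on both arrays, the 40th percentile of all signals other than controls, below which no ratio was taken.

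WRKY53 gave 109.2 signal units in NOT leaves, against 34.0 in WDC leaves, a log2 ratio of 1.68. Its NOT signal was 8.74 times the floor and its WDC signal 2.72 times the floor, so the dimmer side was the nearer to the range in which no ratio was taken. Among 1937 named genes above the floor on both arrays, WRKY53 had the third highest ratio, rank 3 from the top. Counting unnamed probe sets too, 11 of 4753 (0.231%), WRKY53 included, had a ratio at least as high. In the class of similar brightness, the second dimmest of 4 equal classes of probe sets (mean signals from 33.1 to 75.3), 5 of 1188 did so. The members were chosen with earlier results of these data known. The rank and these shares thus describe WRKY53 and are no independent evidence that it stands out.

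WRKY6 gave 126.3 signal units in NOT leaves, against 192.4 in WDC leaves, a log2 ratio of -0.61. It lay just past the 1.5-fold rule used for members and gene groups, which stands at 0.58 on the log2 scale, and 393 of 4753 probe sets (8.27%) had a ratio at least as low. The control probe sets for GAPDH, an enzyme of glycolysis often used as a reference transcript, were lower in NOT as well, with log2 ratios from -0.60 to -0.36 over 3 probe sets. The actin control stood at -0.05, and the 3 ubiquitin control probe sets ranged from -0.20 to 0.57. Of the ribosomal RNA controls, 25S stood at 0.23 and 5S at 1.37. The 5S signals were 42 in NOT and 16.3 in WDC, the latter near the floor. The part of such shifts in the ratios of WRKY6 and WRKY53 was not tested. The 9 spiked-in controls used for scaling were all lower in NOT, with log2 ratios from -0.28 to -0.03. Ratios after scaling to them are given below.

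WRKY22 gave 41.2 signal units in NOT leaves, against 55.6 in WDC leaves, a log2 ratio of -0.43, and 13.7% of probe sets had a ratio at least as low. WRKY20 gave 42.1 signal units in NOT leaves, against 32.7 in WDC leaves, a log2 ratio of 0.36, and 14.7% had one at least as high. Both ratios lay outside the quartiles of all probe sets, -0.24 and 0.22, and inside the 1.5-fold rule. For 93 genes with several measured probe sets, ratios from different probe sets of a gene had an SD of 0.20 on the log2 scale. This SD covers probe noise and not differences between plants. It pools probe sets of any brightness, some with a mark of shared sequence, and was not taken for dim probe sets alone.

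**Figure D1:**
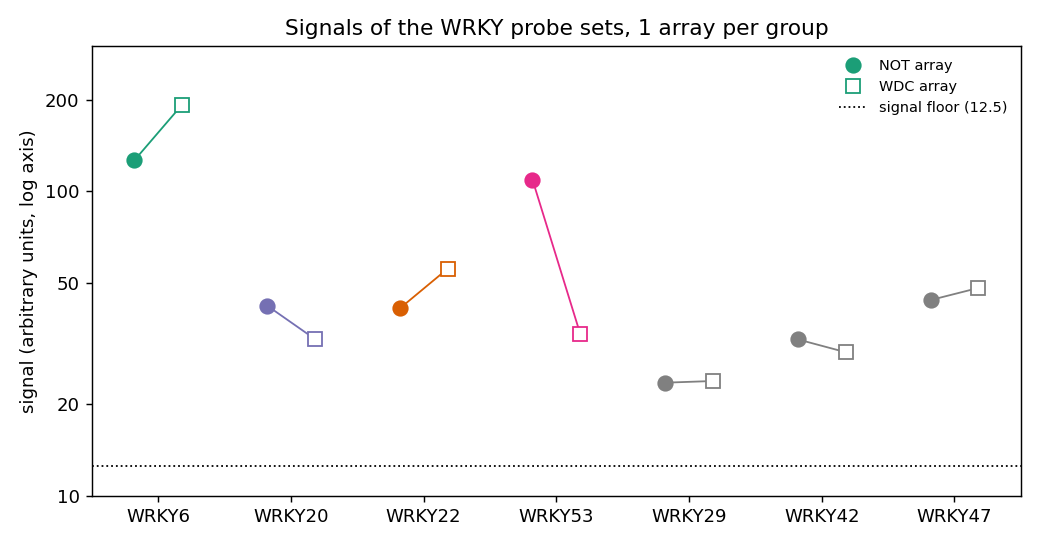
Signals of the 7 WRKY probe sets on a log axis in arbitrary units, with filled circles for the NOT array, open squares for the WDC array and a dotted line at the floor of 12.5; each point is 1 array and no error can be given. WRKY53 stands at 109.2 in NOT and 34.0 in WDC, whereas WRKY29, WRKY42 and WRKY47 have nearly level lines.

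By the 1.5-fold rule, 1 of 4 members was higher in NOT, where 5.89% of the 4753 probe sets measured on both arrays were, and 1 of 4 was lower, where 8.73% were. By the 2-fold rule 1 of 4 was higher, beside 1.41% of all probe sets, and 0 of 4 were lower, beside 3.32%. With scaling to the spiked-in controls, 554 probe sets were at least 1.5-fold higher and 263 lower, against 280 and 415 as reported, and the count of lower members was 0, as it was with median scaling and the offset. With 4 members, chosen with earlier results of these data known, these counts describe WRKY53 and WRKY6 singly and no tendency of the set.

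A scaling constant between the arrays cancels in the difference between the ratios of 2 members. The ratio of WRKY53 exceeded that of WRKY6 by 2.29 on the log2 scale, that of WRKY22 by 2.12 and that of WRKY20 by 1.32. WRKY20 exceeded WRKY6 by 0.97 and WRKY22 by 0.80, while WRKY22 and WRKY6 differed by 0.17, less than the scatter of probe sets of the same gene. The members thus fell on both sides of 0, with WRKY53 and WRKY20 higher and WRKY22 and WRKY6 lower in NOT, and these signs held under all scalings tried.

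**Figure D2:**
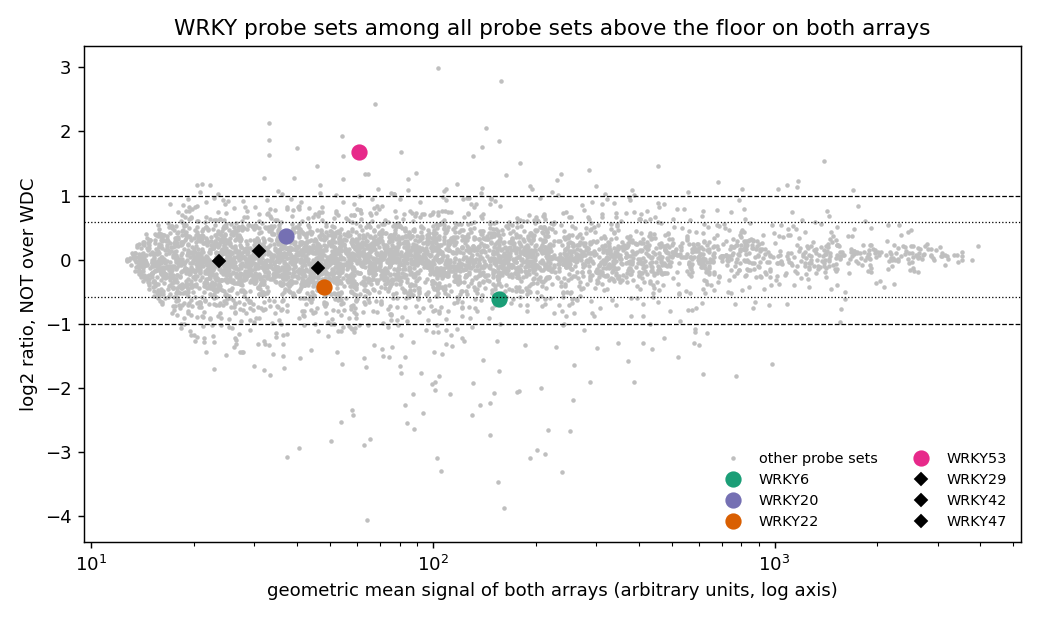
The log2 ratio of NOT over WDC against the geometric mean signal of both arrays (log axis, arbitrary units) for the 4753 probe sets above the floor on both, in grey, with the WRKY genes in colour or as black diamonds; dotted lines mark 1.5-fold and dashed lines 2-fold. WRKY53 at 1.68 lies above the 2-fold line and WRKY6 at -0.61 at the lower 1.5-fold line, with the other WRKY genes between the dotted lines.

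The level of each factor was placed among all probe sets of its array as the percentage with a lower signal. Probe sets differ in how brightly they report equal amounts of RNA, so these places describe signals and do not rank the factors by transcript number. WRKY6 lay at percentile 79.1 in NOT and 84.5 in WDC, with 1719 probe sets brighter in NOT and 1276 in WDC. WRKY53 lay at percentile 77.2 in NOT and 56.6 in WDC, the widest gap between the arrays among the 4 members. WRKY22 lay at 60.9 in NOT and 65.4 in WDC, and WRKY20 at 61.3 in NOT and 55.8 in WDC.

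In units of the array's median signal, WRKY6 reached 5.71 times the median in NOT and 8.08 times in WDC. WRKY53 reached 4.94 times in NOT and 1.43 times in WDC. WRKY22 (1.86 in NOT, 2.34 in WDC) and WRKY20 (1.90 in NOT, 1.37 in WDC) lay between 1.37 and 2.34 times the median. All 4 factors were thus above the median signal of each array, which counts probe sets below the floor too. Among probe sets above the floor alone, WRKY6 lay at percentile 64.8 in NOT and 74.4 in WDC, and WRKY53 at 61.6 and 28.3. WRKY20 lay there at 34.7 in NOT and 27.0 in WDC, and WRKY22 at 34.2 and 42.8.

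**Figure D3:**
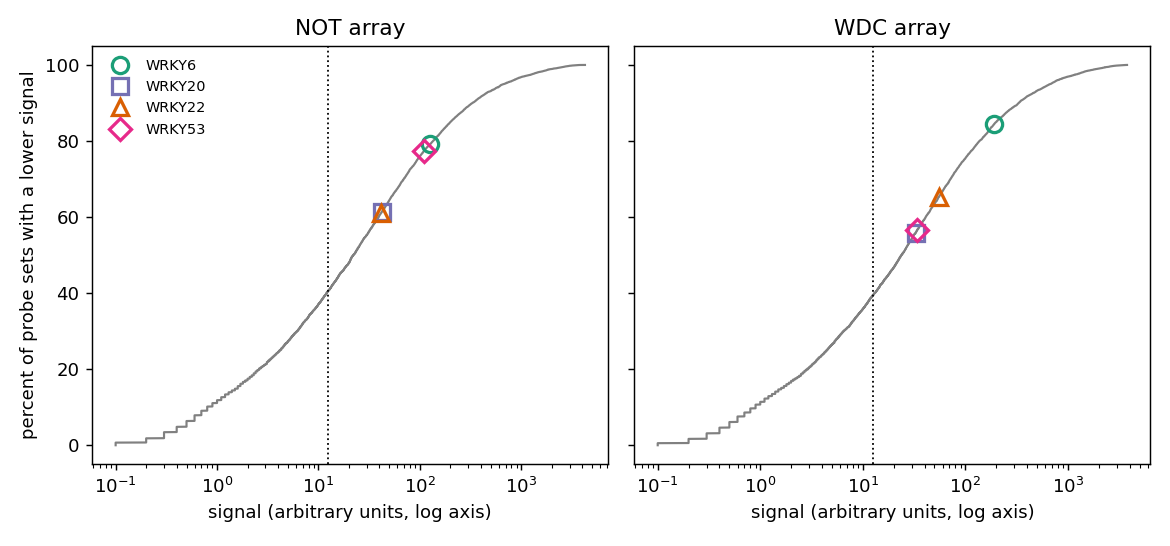
The percentage of the 8247 probe sets with a lower signal (vertical axis) against signal in arbitrary units (log axis; values listed at 0 are drawn at the left end), for the NOT array on the left and the WDC array on the right, with the 4 factors marked and the floor of 12.5 dotted. WRKY53 lies at 77.2% in NOT and 56.6% in WDC, and WRKY6 at 79.1% in NOT and 84.5% in WDC.

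A further 3 WRKY genes had a named probe set, and all lay within 1.5-fold, as most named genes did (4.7% higher and 9.09% lower). WRKY29, the relative of WRKY22 in flagellin signalling, gave 23.5 in NOT leaves, against 23.8 in WDC leaves, a log2 ratio of -0.02. WRKY42, a group IIb relative of WRKY6 that also acts on phosphate homeostasis, gave 32.6 in NOT leaves, against 29.6 in WDC leaves, a log2 ratio of 0.14. WRKY47, of the same subgroup, gave 43.9 in NOT leaves, against 48.1 in WDC leaves, a log2 ratio of -0.13. The signs of WRKY29 and WRKY47 turned positive with scaling to the spiked-in controls (0.15 and 0.04). Relatives of the same subgroup differed in these ratios, with WRKY6 at -0.61 beside WRKY42 at 0.14, and WRKY22 at -0.43 beside WRKY29 at -0.02. Over all 7 WRKY genes the median log2 ratio was -0.02, and over all probe sets it was 0.00. Of the 7, 6 lie on chromosome 4, which holds 31.8% of the genes named on this array.

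Members of other transcription factor families, found by the usual symbols of each family, were set beside the WRKY genes, which leaves out factors with other symbols. They numbered 31, of which 16 were MADS-box genes, and 14 of the 31 were measured on both arrays. By the 1.5-fold rule 0 of the 14 were higher and 5 were lower in NOT, and of the 7 WRKY genes 1 was higher and 1 lower. Among named genes as a whole, 4.7% were higher and 9.09% lower by this rule. The 5 lower factors were DREB2C, of heat and drought responses (7.09-fold), ZAT7, a zinc finger protein of stress responses (3.77-fold), IAA18, an auxin-response repressor (2.25-fold), the homeodomain factor HAT2 (1.87-fold) and the MADS-box factor AGL19 (1.63-fold). The probe sets of DREB2C and ZAT7 have a mark of shared sequence, and the NOT signals of DREB2C (18.9) and AGL19 (14.1) lay near the floor. EIN3, the master regulator of ethylene responses and a promoter of senescence, stood at 0.30, with 981.6 in NOT and 799.9 in WDC. With 1 array per group the difference between the WRKY genes and the other factors was not tested.

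Of 37 listed genes of leaf senescence, 9 were named on the array and 8 of them measured on both arrays, with WRKY53, WRKY6 and WRKY22 among them. By the 1.5-fold rule WRKY53 was higher, WRKY6 lower and the other 6 within it, beside 4.7% of all named genes higher and 9.09% lower. The call for WRKY6 was lost with median scaling, control scaling and the offset. The median log2 ratio of the 8 was 0.06. Without the WRKY factors 5 genes were left, none past 1.5-fold, with a median of 0.30. APG8A, an autophagy protein that coats the forming autophagosome, gave 181.4 in NOT leaves, against 132.3 in WDC leaves, a log2 ratio of 0.46. Its relatives ATG8B and ATG8E stood at -0.53 and -0.17, so the autophagy genes did not share a direction. GAMMA-VPE, a vacuolar processing protease, stood at 0.36. Related genes can add to the signals of ATG8E and GAMMA-VPE, whose probe sets bear a mark of shared sequence. SAG29, a sugar transporter known from senescing leaves, had a signal of 20.6 in NOT and lay below the floor in WDC, at least 1.65-fold higher in NOT.

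Of 23 listed genes of the MAP kinase cascade and pattern-triggered immunity, 4 were named on the array and all 4 measured. WRKY53 was past the 1.5-fold rule, and WRKY22, WRKY29 and BIK1 were within it, beside 4.7% of all named genes higher and 9.09% lower. Without WRKY53 and WRKY22, 2 genes were left, neither past the rule. BIK1, a cytoplasmic kinase that relays signals from immune receptors, gave 63.6 in NOT leaves, against 82.7 in WDC leaves, a log2 ratio of -0.38. Its probe set is marked as shared with related sequences. The median of the 4 was -0.20. Of 23 listed genes of salicylic acid defence, 1 had a named probe set, PR-1-LIKE, a relative of the defence protein PR1, which lay below the floor in NOT leaves, against 66.2 in WDC leaves, so that its level in NOT was lower by at least 5.30-fold. None of 17 listed partners and targets reported for the 4 factors had a named probe set, so these 17 genes were not analysed here.

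Leaf photosynthesis markers were bright on both arrays. Of 33 listed photosynthesis genes, 6 had a named probe set, with signals from 304.1 to 3135 in NOT and from 374.6 to 3028 in WDC. All 6 lay within 1.5-fold, and their median was 0.02 on the log2 scale. Most named genes lay within 1.5-fold as well, with 4.7% higher and 9.09% lower in NOT. None of 14 markers of root, flower and seed had a named probe set. The ratio of the GAPDH 3' over 5' control signals was 1.24 in NOT and 1.19 in WDC, and that of ubiquitin 1.45 in NOT and 1.13 in WDC.

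**Figure D4:**
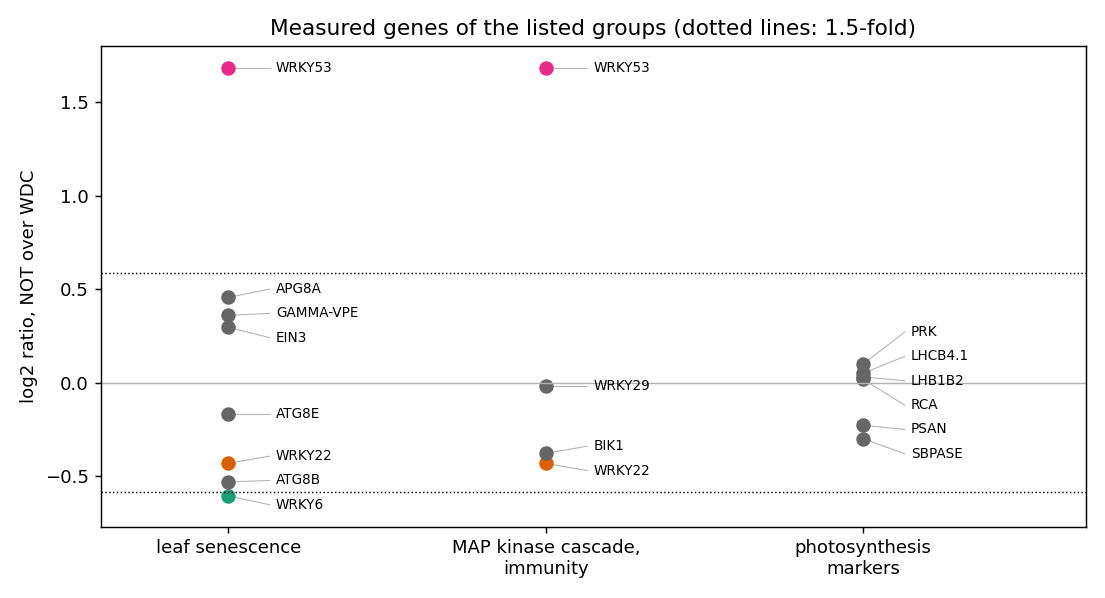
The log2 ratio of NOT over WDC for each measured gene of 3 listed groups, leaf senescence, MAP kinase cascade and immunity, and photosynthesis markers; each point is 1 gene by its brightest probe set, coloured for WRKY53, WRKY22 and WRKY6, and dotted lines mark 1.5-fold. WRKY53 at 1.68, which belongs to both of the first groups, is the one gene above the upper line, and WRKY6 at -0.61 is the one below the lower line.

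For each factor the 2 named genes outside the family with the most similar pair of signals were found by distance between log2 signals over the 2 arrays, which is a likeness of level and ratio and nothing more. Nearest to WRKY53 were AT4G24340, with 95.6 in NOT and 31.2 in WDC (distance 0.23; its probe set has a mark of shared sequence), and the class V chitinase ChiC, with 84.1 in NOT and 35.2 in WDC (distance 0.38). The nearest genes to the other factors lay at distances of 0.05 to 0.08. They were AT3G52220 and AT2G45820 for WRKY6, AT4G36440 and AT2G30100 for WRKY20, and AT5G26740 and AT4G31310 for WRKY22.

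The genes next to each factor on the chromosome, up to 10 protein-coding genes on each side, were examined as well, a comparison chosen after the ratios were known. Around WRKY53, 6 neighbours were measured, with log2 ratios from -0.44 to 0.47. None was past 1.5-fold, beside 4.7% of all named genes higher and 9.09% lower. The genes on either side of it, 3xHMG-box2 and AT4G23820, stood at -0.17 and -0.44. Around WRKY22, 1 of 6 measured neighbours was at least 1.5-fold lower (AT4G01200, -0.93), and around WRKY20, 1 of 4 was (AT4G26600, -0.65), beside 9.09% of all named genes. The 2 measured neighbours of WRKY6 stood at 0.01 and 0.31.

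The difference of WRKY53 stayed past 2-fold under every setting in which a ratio could be taken, with log2 ratios from 1.52 to 1.85. Only the scalings and the offset could change the ratio of WRKY53. With the floor at the 60th percentile (40.1) its WDC signal fell below the floor, and the bound was at least 2.72-fold. WRKY6 missed the 1.5-fold rule when medians were set equal (-0.57), with an offset of 6.25 on both signals (-0.58) and with scaling to the spiked-in controls (-0.44). WRKY20 and WRKY22 ranged from 0.31 to 0.53 and from -0.43 to -0.26, inside the rule wherever a ratio could be taken.

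**Figure D5:**
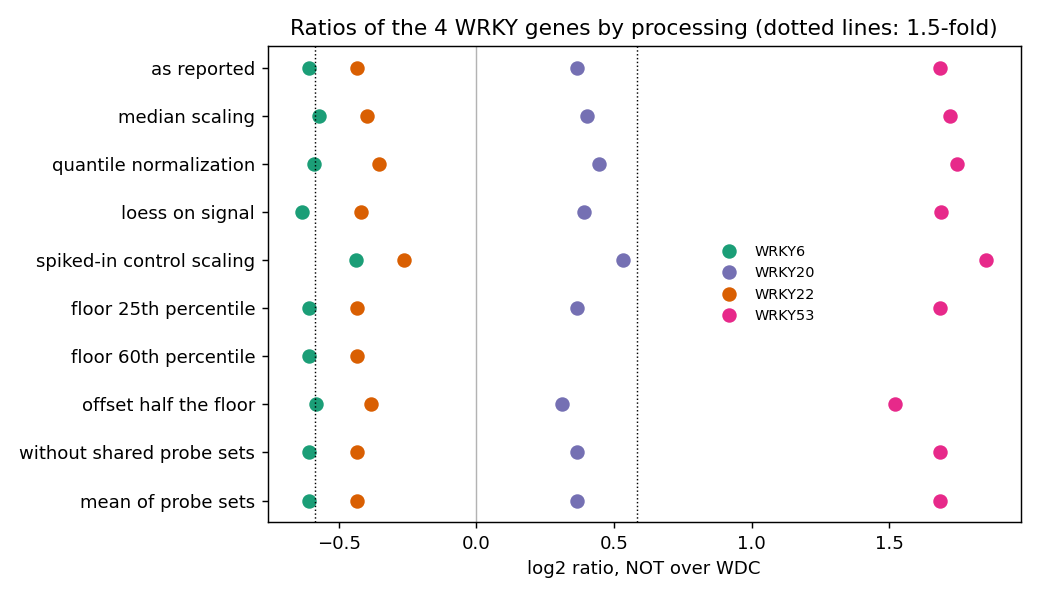
The log2 ratio of NOT over WDC (horizontal axis) of the 4 factors under each processing setting (rows), with dotted lines at 1.5-fold; WRKY20 and WRKY53 have no point with the 60th percentile floor, where their WDC signals lie below it. WRKY53 stays between 1.52 and 1.85, and WRKY6 between -0.63 and -0.44, on both sides of the lower dotted line.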

How the data were processed

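The deposited values are 1 linear intensity per probe set and array, from biotin-labelled RNA on Affymetrix arrays of 8297 probe sets. The authors appear to have scaled them before deposit, as both arrays have a mean of 100.1 once 2% of values are trimmed from either end. How probes were summarised is not stated, and detection calls were not used.

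After 50 controls were left out, 3794 probe sets named 1 gene, 70 several and 4383 none here. Names were updated through RefSeq (TAIR10.1), which matched 3792. Ratios were taken as log2 of NOT over WDC where both signals exceeded the floor, and as a bound where 1 did. Genes with more than 1 probe set were represented by the brightest.

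The members and lists were chosen with earlier results of these data known. Text names all WRKY probe sets, up to 4 genes of each list by absolute ratio and the 2 nearest genes of each member. Neighbouring genes, the control probe sets, the lower factors, ATG8E, SAG29 and PR-1-LIKE were named beyond that rule. The photosynthesis markers were given as a group and not named in the text. Alternatives changed scaling, floor, offset, shared probe sets and averaging (Python 3.11.15, numpy 2.4.6, pandas 2.3.3, statsmodels 0.14.6). The counting was tested on simulated data by the 2-fold rule, with changes put into brighter probe sets only. Calls by the 1.5-fold rule and changes in dim probe sets were not covered.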

Additional observations from a re-analysis of the deposited data

How the results depend on the processing

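All 34 ratios of the 4 factors under alternatives moved by less than the scatter of probe sets of a gene, and none changed sign. A change of floor, leaving out shared probe sets and averaging could not move a ratio. Each factor has 1 probe set, without a mark of shared sequence, so only the scalings and the offset could move a ratio. No paired analysis was possible because each group had 1 array. Members at least 1.5-fold lower numbered 0 with median scaling, control scaling and the offset, as did senescence genes (WRKY6 fell short in each), and control scaling, which put the median of all ratios at 0.16, gave 2 senescence genes higher, APG8A being added at 0.62. It gave 107 probe sets at least 2-fold higher, and 554 higher and 263 lower at 1.5-fold. The 25th percentile floor gave 106 higher and 242 lower at 2-fold, 626 lower at 1.5-fold and 1 other transcription factor higher. The 60th percentile floor left no ratio for WRKY53 or WRKY20, hence 0 members higher at 1.5-fold or 2-fold and 0 higher in the senescence and MAP kinase lists. It kept ratios only for WRKY6, WRKY22 and WRKY47 of the WRKY family, and for WRKY22 and BIK1 of the MAP kinase list. The medians of these genes were -0.43 and -0.41, and do not describe the whole family or list. This floor gave 3 other transcription factors lower, 43 higher and 81 lower probe sets at 2-fold, and 182 and 211 at 1.5-fold. Higher floors measure fewer probe sets, and no other cause was tested. Ranked among probe sets above the floor, percentiles in NOT and WDC were 64.8 and 74.4 for WRKY6, 34.7 and 27.0 for WRKY20, 34.2 and 42.8 for WRKY22, and 61.6 and 28.3 for WRKY53. Among the 38 transcription factors found by symbol, percentiles in NOT and WDC were 92.1 and 89.5 for WRKY6, and 73.7 and 60.5 for WRKY20. They were 68.4 and 76.3 for WRKY22, and 89.5 and 63.2 for WRKY53. That set includes the 4 factors and 16 MADS-box genes, whose median signals of 4.35 in NOT and 4.3 in WDC lay below the floor. The other transcription factor counts and the difference between WRKY53 and WRKY6 were tried under these settings after the data were seen. Ratios near the floor are limited by signal over background.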
